A study of Homo sapiens with 16 samples.

Results

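The genes described here are 64 genes annotated to neurons, axons or synapses that stood in a gene list from breast cancer metastases in mouse brain. They are the genes named in the authors' deposited table for MDA231 by any Gene Ontology term whose name holds "neuro", "axon", "synap", "nervous" or "brain". That wording took 6 of the 314 terms in the table and 66 genes, of which GSK3B and CTNNB1 were set aside. The 64 members are part of 2646 genes named in the MDA231 table and of 2676 named in the whole series. Being printed in such a term chose the members. Their membership of these terms, the terms' p-values and the terms' listed shares are given as a description.

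The RNA came from Flura-seq, in which cells able to convert 5-fluorocytosine label their new RNA, and an antibody against the halogenated base then pulls that RNA down. The series holds 16 libraries, 4 of immunoprecipitated (IP) RNA and 4 of input RNA for MDA231, a triple-negative breast cancer line, and the same numbers for HCC1954, an ERBB2-positive one. All libraries come from the brain-metastatic derivative of the line, grown in mouse brain for 30 days. Each brain was taken 12 hours after 250 mg/kg of 5-fluorocytosine, so input and IP groups share the drug and the host tissue. The labels do not say whether the derivative is 1 clone. No value per library is used here, which leaves depth and replicate error unknown for every value. The sources used here do not say how the list was chosen or whether its genes were higher or lower in IP than in input, so a listed gene has no direction here.

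A nerve cell sends out axons and dendrites, builds them on microtubules and actin, and supplies their ends with vesicles carried along the axon. Vesicles then fuse with the membrane through SNARE proteins and release transmitter. Most of this machinery also works in cells that are not neurons: the same adaptors sort cargo to lysosomes and melanosomes, and the same SNARE proteins serve secretion and membrane growth. A term named for neurons can therefore hold genes used by many cell types.

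Neuron projection development was the broadest of the 6 terms. It held 34 of its 100 background genes, which is 34.0% with an exact 95% binomial interval of 24.8 to 44.2, where 21.6% of all 16792 background genes were listed. The authors' deposited table gives it a 1.57-fold enrichment (p = 0.00538, adjusted p = 0.503). Negative regulation of neuron death held 17 of 40 background genes (42.5%, interval 27.0 to 59.1), at 1.97-fold in the authors' deposited table (p = 0.00641, adjusted p = 0.519). Positive regulation of neuron death held 8 of 17 (47.1%, interval 23.0 to 72.2), at 2.18-fold in the authors' deposited table (p = 0.0546, adjusted p = 0.902). Both neuron death counts include a gene set aside above. Without it, the negative term has 16 members and the positive term 7.

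The other 3 terms concern vesicles and axonal traffic and were small. Anterograde axonal transport, the movement of cargo from the cell body outward, held 11 of 26 background genes (42.3%, interval 23.4 to 63.1), at 1.96-fold in the authors' deposited table (p = 0.0379, adjusted p = 0.841). Anterograde synaptic vesicle transport held 8 of 15 (53.3%, interval 26.6 to 78.7), at 2.47-fold in the authors' deposited table (p = 0.0270, adjusted p = 0.783). Synaptic vesicle fusion to the presynaptic active zone membrane held 6 of 12 (50.0%, interval 21.1 to 78.9), at 2.32-fold in the authors' deposited table (p = 0.0955, adjusted p = 0.965). This last term lay just inside the edge of the table, whose largest p is 0.0973, and 4 members (SNAP23, SNAP29, SNAP47 and STX4) are named by it and no other of the 6.

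None of the 6 terms had an adjusted p under 0.05 in the authors' deposited table, where 15 of 6488 tested terms (0.231%) did, or 4.78% of the 314 printed ones. Of the 6, 4 had an unadjusted p under 0.05, as did 214 of the 6488 (3.3%); among the 314 printed terms alone this was 68.2%. Just outside the wording lay neural tube closure (24 of 77 background genes, adjusted p = 0.903) and positive regulation of glial cell proliferation (6 of 10, adjusted p = 0.862), values again from the authors' deposited table. The intervals cover the draw of genes only. All printed terms had p under 0.1, so the shares of these 6 exceed 21.6% through that choice and test nothing.

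**Figure D1:**
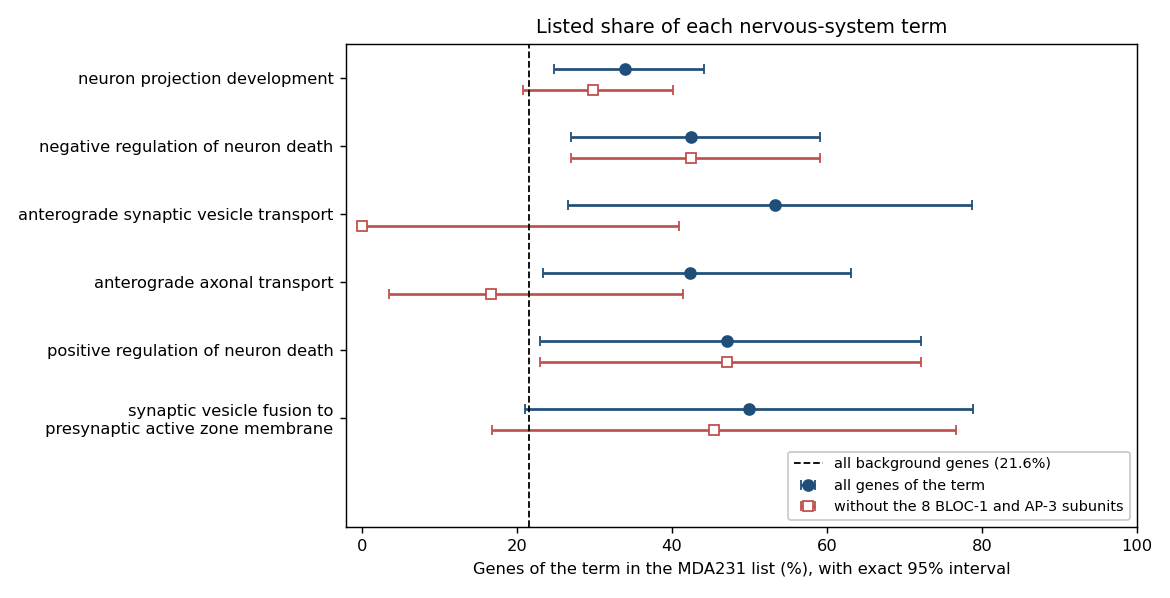
Share of each term's background genes that were in the MDA231 list (x axis, percent) for the 6 terms (y axis), with exact 95% binomial intervals. Filled circles take all genes of the term and open squares leave out the 8 BLOC-1 and AP-3 subunits described in the text; the dashed line is the 21.6% listed among all background genes. The vesicle transport term has 53.3% with these subunits. All 8 of its listed genes are among them and only listed subunits were left out, so its open square is 0% by construction. Terms were printed for their enrichment, so the filled circles lie above the line through that choice.

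By known role, 8 of the 64 members (12.5%) are genes best known from nerve cells and 56 (87.5%) are general genes. The general genes are those of traffic, the cytoskeleton, signalling, cell death, transcription, ubiquitin and the proteasome, the cell surface or metabolism. Roles were assigned by hand from textbook knowledge with the members in view, and other readers may place single genes differently. Genes known from nerve cell disease stand in both classes, ATXN10 and TBC1D24 in the first and SPAST, SPG7 and SOD1 in the second. Where the genes are expressed was not examined, and the 8 may also act in cells of other types. All 8 nerve cell genes are in neuron projection development, where they stand beside 26 general ones. Of the remaining terms, negative regulation of neuron death alone names any of the 8, which is CDK5.

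MAP2 encodes a microtubule-associated protein of neuronal dendrites and is the usual marker of them. It was named by neuron projection development and by no other of the 314 terms. Over all 16792 background genes, 15.8% are named in the table. Of 24 neuron markers looked up, MAP2 was the single one named (4.17%); the others, among them RBFOX3, TUBB3, SYP and SNAP25, were not, although a listed gene in no printed term would not be seen. No marker was named of 7 for astrocytes, 8 for oligodendrocytes or 6 for microglia, and PECAM1 was the 1 of 5 for endothelium. Of 8 epithelial markers, 6 were named (75.0%), and 1 of these, CDH1, is itself a member through neuron projection development. CDH1 encodes E-cadherin, the adhesion molecule of epithelial junctions. All these lists are short, and a marker in no printed term would not be seen. At 15.8% a list of 5 to 8 genes may well have none named, so the counts tell no cell types apart. Being named also gives a marker no direction. The processing notes name both a human and a mouse genome, and whether mouse reads contribute to MAP2 or any other member was not tested.

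CDK5, a kinase activated by neuronal partner proteins, was the nerve cell gene in most terms. It was named by 15 terms, 2 of them nervous-system terms (neuron projection development and negative regulation of neuron death) and others including cell division, cell cycle and intracellular protein transport. The other nerve cell genes were in few. APP, the precursor of the amyloid peptide, was in 3 terms, and ZFYVE27, which encodes protrudin, a protein of neurite outgrowth, was also in 3. FLRT3, an adhesion protein of axon guidance and synapses, and TBC1D24, a vesicle traffic protein mutated in epilepsy, were in 2 each. ATXN10, the gene of a spinocerebellar ataxia, and BICDL1, an adaptor of motor-driven vesicle transport, were in neuron projection development alone.

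BLOC-1, a complex that sorts cargo from endosomes to lysosome-related organelles, tied neuron projection development to both anterograde transport terms. Its subunits BLOC1S2, BLOC1S3, BLOC1S4, BLOC1S5, DTNBP1 (dysbindin) and SNAPIN, 6 of the 8 in the complex, were members; BLOC1S1 and BLOC1S6 were not named in the table. AP-3, the adaptor coat that works with BLOC-1, had AP3D1, its large delta subunit, and AP3S2, a small sigma subunit, of 7 subunits. Of related complexes, BLOC-2 had 0 of 3 subunits named, BLOC-3 had 1 of 2, not a member, and BORC had 2 of 8, which are BLOC1S2 and SNAPIN, subunits it shares with BLOC-1. Among all background genes 15.8% are named. These complexes were looked up after the members had been seen, so the counts describe the overlap of terms and test nothing.

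Each of the 6 BLOC-1 subunits was in neuron projection development, anterograde axonal transport and anterograde synaptic vesicle transport. SNAPIN, which also binds SNAP25-type SNARE proteins, was in 4 of the 6 terms, more than any other member. The 8 genes of anterograde synaptic vesicle transport were exactly these 6 and the 2 AP-3 subunits. They were all in anterograde axonal transport too, where they made up 72.7% of 11 genes. The axonal transport genes outside the complexes were SPAST, which severs microtubules, SPG7, a mitochondrial protease, and SOD1, the superoxide dismutase. Mutations of each are known from motor neuron or axon disease, and each protein also acts in cells of other types.

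Without the 8 subunits, anterograde synaptic vesicle transport held 0 of 7 background genes (interval 0 to 41.0%), and anterograde axonal transport 3 of 18 (16.7%, interval 3.58 to 41.4). Neuron projection development then held 28 of 94 (29.8%, interval 20.8 to 40.1), a 1.38-fold ratio to the background. The subunits taken out are listed ones by choice, which lowers these shares and fixes that of anterograde synaptic vesicle transport at 0. Both neuron death terms hold none of them.

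**Figure D2:**
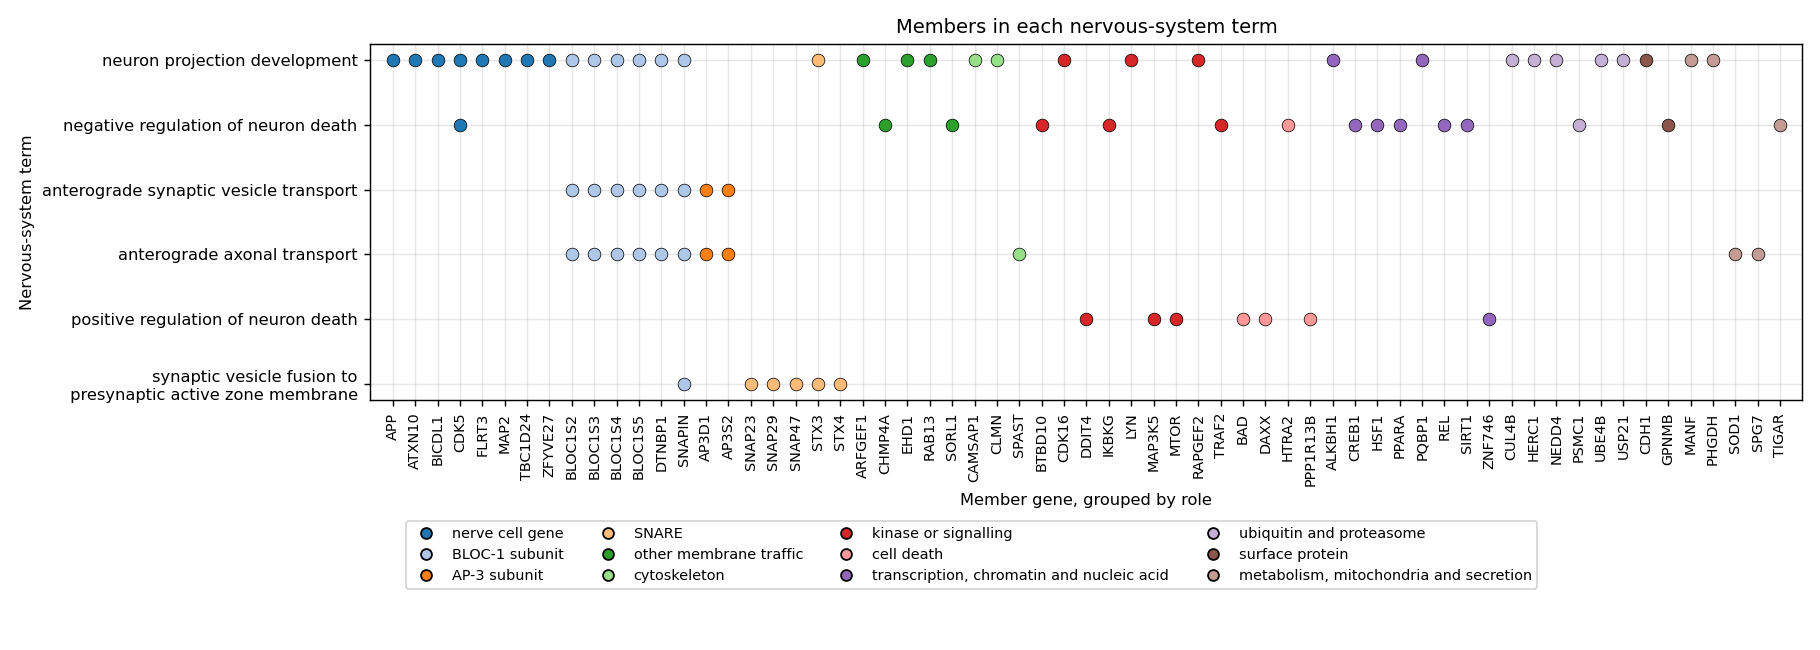
Nervous-system terms (y axis) naming each of 63 of the 64 members (x axis), with 1 point per gene and term, coloured by role. The 6 BLOC-1 subunits each appear in at least 3 terms, while the terms for positive and negative regulation of neuron death have no gene in common.

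Of the 64 members, 53 were in 1 of the 6 terms and 11 (17.2%) in at least 2. Among those 11 were the 8 subunits, CDK5 and STX3. Among 15 pairs of terms, 7 had a member in common. The largest overlap apart from the transport pair was between neuron projection development and either transport term, with 6 genes, which is 17.6% of the projection term's 34 genes, 75.0% of the vesicle transport genes and 54.5% of the axonal transport genes.

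SNARE proteins, which drive membrane fusion, gave 5 members. SNAP23, SNAP29 and SNAP47 are 3 of the 4 proteins of the SNAP25 family; SNAP25, the neuronal member, was not named. STX3 and STX4 are plasma membrane syntaxins, while STX1A and STX2 were not named in the MDA231 table. SNAP23, SNAP29, STX3 and STX4 were also in membrane fusion, and SNAP47 was in no further term. Of 39 genes of synapse and vesicle release looked up, the table named 2 (5.13%, where 15.8% of background genes are named), of which SNAP23 is a member.

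The rest of the traffic group had 5 genes. RAB13, a small GTPase of tight junction traffic, was in 7 terms, and EHD1, an ATPase of endocytic recycling, in 6. CHMP4A, a subunit of the ESCRT membrane scission machinery, was in 6, ARFGEF1, an exchange factor of Golgi traffic, in 3, and SORL1, a sorting receptor for APP, in 2. With BLOC-1, AP-3 and the SNARE proteins, membrane traffic made up 18 of 64 members (28.1%). Few members were cytoskeletal: beside MAP2 they were SPAST in 6 terms, CAMSAP1, which caps microtubule minus ends, in 1, and CLMN, an actin-binding membrane protein, in 1.

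Kinase and signalling genes numbered 9, and several were in many terms. MTOR, the growth kinase, was in 16 and is a member through positive regulation of neuron death. TRAF2, an adaptor of tumour necrosis factor receptors, was in 15, IKBKG, the regulatory subunit of the IKK complex, in 10, and MAP3K5, a stress-activated kinase, in 9. LYN, a SRC-family kinase, and RAPGEF2, an activator of RAP GTPases, were in 6 each. DDIT4, an inhibitor of MTOR signalling, was in 4, CDK16, a cyclin-dependent kinase, in 3, and BTBD10, a regulator of AKT, in 1.

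All the cell death genes and most of the transcription genes were members through the neuron death terms. The apoptosis genes were BAD in 10 terms, DAXX in 8, and HTRA2, a mitochondrial protease, and PPP1R13B, a p53-binding protein, in 4 each. SIRT1, a deacetylase, was in 23 terms, the most of any member. The transcription factors HSF1 (7 terms), PPARA (6), CREB1 (5) and REL (3) were members through negative regulation of neuron death, and ZNF746, a repressor, was in 4 through the positive term. PQBP1, a splicing-linked protein in 2 terms, and ALKBH1, a nucleic acid demethylase in 4, came from neuron projection development.

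Ubiquitin and proteasome genes numbered 6, of which 5 came from neuron projection development: the ligases and ligase scaffolds CUL4B (8 terms), NEDD4 (8), UBE4B (8) and HERC1 (2), and the deubiquitinase USP21 (4). PSMC1, a proteasome ATPase in 3 terms, came from negative regulation of neuron death. Metabolic, mitochondrial and secreted proteins included TIGAR, a glycolytic regulator, in 7 terms, SOD1 in 5, PHGDH, of serine synthesis, in 4, SPG7 in 2 and MANF, a secreted endoplasmic reticulum factor, in 1. The surface proteins were CDH1 in 3 terms and GPNMB, a transmembrane glycoprotein, in 1.

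**Figure D3:**
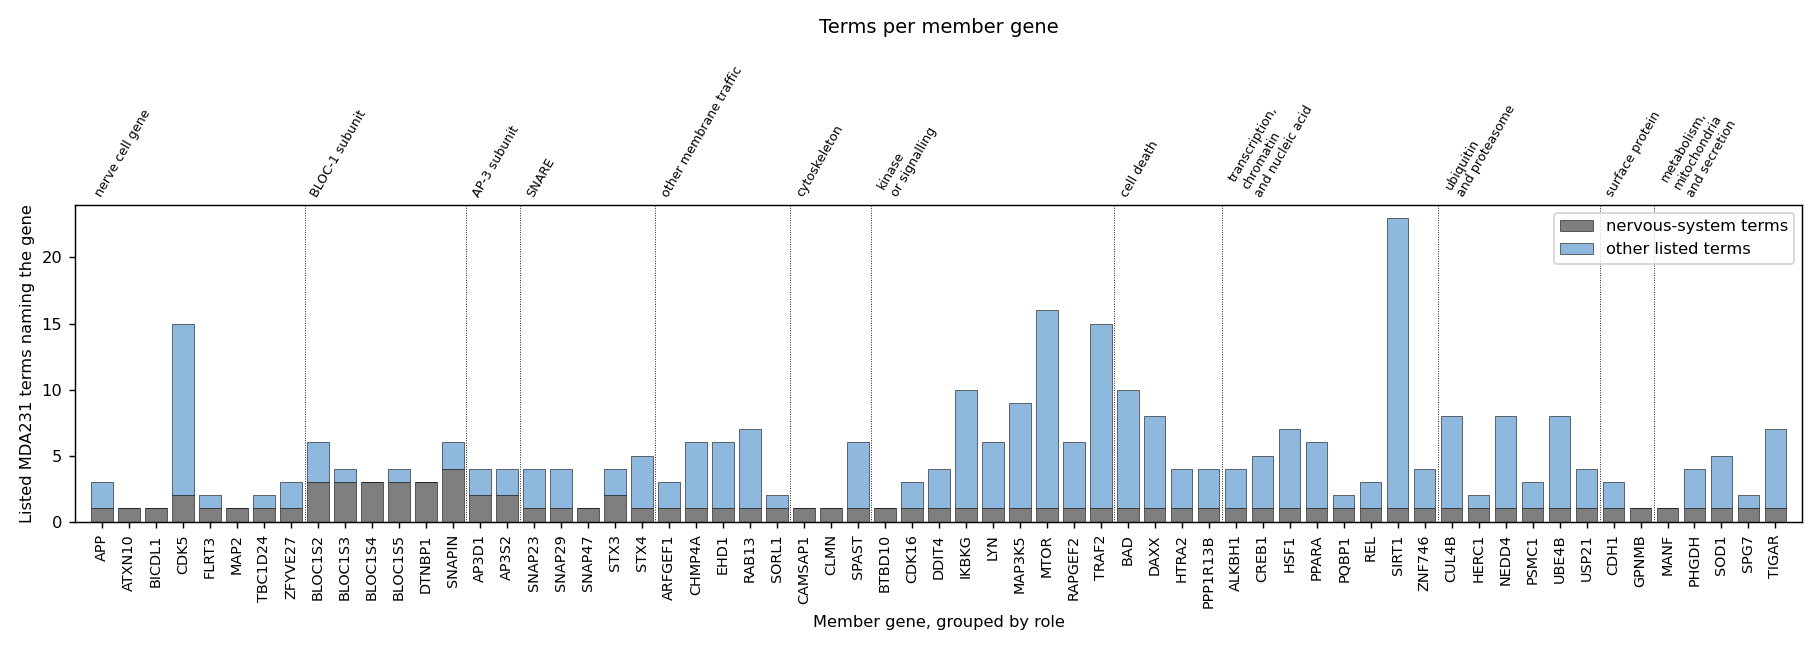
Number of listed MDA231 terms naming each of 63 of the 64 members (y axis), split into the 6 nervous-system terms (grey) and all others (blue), with members grouped by role (x axis). SIRT1, MTOR, TRAF2 and CDK5 reach 15 or more terms, while MAP2 is in 1.

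Members were in a median of 4 terms (exact 95% interval of the median 3 to 5, range 1 to 23), against a median of 2 over the 2646 genes named in the table. Outside the 6 terms the members' median was 3. A gene in many terms is more likely to be in 1 of any 6, so the choice itself favours such genes. The 8 nerve cell genes had a median of 2 terms (interval 1 to 15), and the 56 general members one of 4 (interval 4 to 6). The first interval holds both medians. In all, 53 members (82.8%) were in at least 1 of 127 other listed terms, and 11 were in none: ATXN10, BICDL1, BLOC1S4, BTBD10, CAMSAP1, CLMN, DTNBP1, GPNMB, MANF, MAP2 and SNAP47.

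Of the 64 members, 25 were in a term with adjusted p under 0.05 (39.1%, interval 27.1 to 52.1), where 838 of the 2646 named genes (31.7%) were. The members are part of the 2646 and are not independent draws, so the difference between these shares was not tested. These 25 included 3 of 8 nerve cell genes (APP, CDK5 and FLRT3), 22 of 56 general ones, 4 of 5 SNARE genes, both AP-3 subunits and, of BLOC-1, SNAPIN alone. Intracellular protein transport (adjusted p = 0.000235 in the authors' deposited table) named 7 members, namely AP3D1, AP3S2, CDK5, EHD1, SNAPIN, STX3 and STX4 (10.9% of members, against 3.29% of all named genes). Protein transport (adjusted p = 1.22e-05 in the authors' deposited table) named ARFGEF1, SNAP23 and SNAP29 (4.69%, against 5.14% of all named genes). Protein phosphorylation (adjusted p = 0.0350 in the authors' deposited table) also named 7: APP, CDK16, CREB1, HSF1, LYN, MAP3K5 and MTOR (10.9%, against 5.06% of all named genes). Cellular response to DNA damage stimulus named IKBKG, LYN, SIRT1 and TIGAR (6.25% of members, against 3.17% of all named genes). DNA repair named ALKBH1, MTOR and SIRT1 (4.69%, against 3.21%), and autophagy CHMP4A, MTOR and TIGAR (4.69%, against 2.04%).

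Grouping the other listed terms by name gave the processes the members also serve. Protein or vesicle transport terms named 18 members (28.1%), against 14.6% of all named genes. Terms of apoptosis or other cell death named 12 members (18.8%), against 7.60% of all named genes. Ubiquitin or protein breakdown terms named 12 members (18.8%), against 11.6% of all named genes. Phosphorylation terms named 8 members (12.5%), against 7.18%, and terms of DNA damage or repair 7 (10.9%), against 6.54%. Transcription terms named 11 members (17.2%), against 23.3% of all named genes. These groups of names were drawn up after the members were known and were not tested. The members were chosen through neuron death and transport terms, which itself favours the cell death and transport groups. They were also in more terms than all named genes (median 4 against 2), which favours higher shares in most groups.

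**Figure D4:**
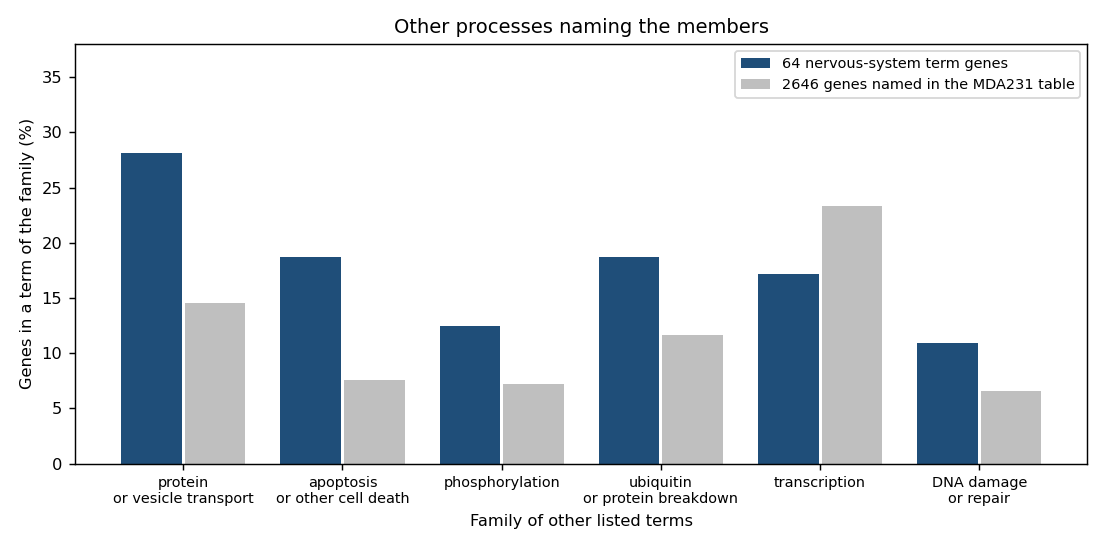
Percent of genes (y axis) in a listed term of each family outside the nervous-system terms (x axis), for the 64 members (dark bars) and the 2646 genes named in the MDA231 table (grey bars). Transport has the highest share among members (28.1% against 14.6%), and transcription is the family in which their share is below that of all named genes. The terms that chose the members themselves concern transport and cell death among others, so these shares are a description.

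Gene lists drawn up for nerve cell biology were looked up in the same table, where 15.8% of background genes are named. The lists were chosen with earlier results of these data known, so their counts are a description and test nothing. Of 46 axon guidance genes 6 were named (EFNA1, EPHB3, PLXNA3, PLXNB1, SEMA3C and SEMA4D), and none is a member. Of 15 neurotrophins and receptors 1 was named, SORT1, again not a member. Small GTPases and their regulators had 16 of 40 named, with EHD1, RAB13 and RAPGEF2 as members. The microtubule and actin list had 14 of 56, with MAP2 and SPAST as members. Kinases and related genes of neurite growth had 9 of 36, with CAMSAP1 and CDK5, and neurodegeneration genes 7 of 33, with APP and SOD1 among the members. Genes of neural transcription and fate had 6 of 34, among them NOTCH1 and PAX6, and no member. A gene absent from these counts may still have been in the MDA231 list.

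The HCC1954 table, with 37 terms and 30 named genes, held no term matched by the same words and named 0 of the 64 members. It also named 0 of all 2646 genes of the MDA231 table, so the absence is no feature of the members.

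All 64 members are protein-coding genes of GENCODE release 29 on GRCh38, spread over 19 chromosomes, with a median span of 48.5 kb (1.62 to 310 kb), against 35.7 kb over all named genes. MAP2 (ENSG00000078018; chromosome 2, 209424058 to 209734118, plus strand) has the longest span of the members and BLOC1S4 (ENSG00000186222; chromosome 4, 6716055 to 6717671, plus strand) the shortest. CDK5 (ENSG00000164885) lies on chromosome 7, 151053812 to 151058530, minus strand. SNAPIN (ENSG00000143553) lies on chromosome 1, 153658654 to 153661830, plus strand, and DTNBP1 (ENSG00000047579) on chromosome 6, 15522801 to 15663058, minus strand.

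For some members, reads could have been shared with another gene. In 8 members at least 10% of exonic bases lie in exons of another annotated gene on the same strand: CHMP4A (68.8%), REL, TIGAR, RAB13, AP3S2, BLOC1S5, DAXX and ATXN10. The gene with the most shared exonic bases is the read-through C15orf38-AP3S2 for AP3S2 (21.1%) and the read-through EEF1E1-BLOC1S5 for BLOC1S5 (14.3%), both members being in the transport terms. A further 8 have at least 10% on the other strand, among them PSMC1 (75.8%, with NRDE2), SNAP47 (35.3%, with JMJD4) and CDK5 (11.3%, with SLC4A2). IKBKG has a near-identical pseudogene elsewhere, and whether reads were shared with it was not tested. Neither the counting mode nor the strand setting is given in the sources used here.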

How the data were processed

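Per the labels' protocols, mRNA of each brain was bound to oligo(dT) beads, anti-BrdU antibody (2.5 µg a brain) precipitated the labelled part, and cDNA libraries followed. The tools named per the submitters' processing notes are STAR and HTSeq, with builds GRCh38 and GRCm38. The authors' tables hold, per the file headers, each term's gene count and percent of submitted genes, gene identifiers, list and background totals, p-value, adjusted p-value and fold enrichment (a ratio). From the deposited percent, 4197 genes were submitted; 3626 carried a process term. No source used here names the enrichment tool. The 6488 tested terms were derived from the deposited Bonferroni values.

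Term names were matched without regard to case, and identifiers were paired with symbols (64 of 64 members). Intervals are exact (Clopper-Pearson) 95% binomial intervals and cover the draw of genes only; that of a median comes from order statistics. No test was made, and IP was not compared with input, since that needs values per library. The members and lists were chosen with earlier results of these data known. Named genes are members in at least 2 of the terms, the 20 in most terms and members of the looked-up lists; the others are given by role. The term matching, the intervals and the derivation of tested terms were tried on simulated data with known answers. Alternatives changed the name words, the p limits, the dropped genes and the terms taken. Depth per library is unknown here. Software was NumPy 2.4.6 and SciPy 1.17.1 under Python 3.11.15. Values of 1 member are not reported here, though counts over all members include it.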

Additional observations from a re-analysis of the deposited data

How the results depend on the processing

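Without neuron projection development, the broadest term, 39 of the 64 members remained. The wider set of name words gave 92 members, and the other choices of words, p limit and dropped genes 53 to 66. Leaving out the BLOC-1 and AP-3 subunits, an alternative chosen after seeing the data, lowered the share of members in at least 2 nervous-system terms to 5.36%, since 8 of the 11 such genes are those subunits. At an unadjusted p under 0.05, 4 nervous-system terms pass in place of 0; at an adjusted p under 0.1, 0 pass. The share of members in a term past the adjusted threshold was 29.7% at 0.01 and 48.4% at 0.1, where the share of all named genes was 23.4% and 45.9%. No paired analysis was possible because the tables hold no value per library, and for the same reason no library could be left out. Library depth is unknown here, so its effect on which genes were listed was not tested.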
